A study of Mus musculus with 2 samples.

Results

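The genes described here encode the proteins of the cytosolic ribosome and were chosen by name: protein-coding genes listed in both count tables under an Rpl or Rps symbol with a number, together with Rpsa, Rplp0, Rplp1 and Rplp2. Symbols of pseudogenes and of the S6 kinases were left out. The rule found 86 genes of the 51084 gene identifiers that both tables share. They comprise 51 large-subunit genes, 33 small-subunit genes, and 2 genes whose products are not structural ribosomal proteins, Rps19bp1 and Rpl7l1. They lie on 19 chromosomes.

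Polyadenylated RNA was sequenced from macrophages grown in culture from the bone marrow of C57BL/6J mice. CANDI470, an agent known here only by its code name, was given at 1 mg/mL on the 7th day of culture, 12 h before the RNA was taken. The other group received PBS. Each group is 1 sample, so no difference has a replicate check, and no p-value is given. Cultures given empty CANDI were not analysed here, and a response that they would share cannot be told apart from one to CANDI470. The labels do not give the number of mice. A title line of the CANDI470 count table names BTZ beside that agent, without saying what BTZ is. The table's count column and the sample's label name CANDI470 alone, and they were followed here.

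Gene counts totalled 41646905 with CANDI470 and 28442450 with PBS. The count tables use different gene annotations, and only 1 of the 86 genes had identical coordinates in them, although 82 had the same gene length. Treatment, library making and counting can therefore not be told apart. Levels are in CPM, counts per 1000000 counts after TMM scaling, a method that sets the library sizes so that the bulk of genes are level. Differences are the log2(CPM + 1) value of CANDI470 less that of the PBS control, a scale that understates the differences of genes with low counts. Ratio intervals are 95% exact binomial intervals and cover counting error only.

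Ribosomal proteins coat and stabilise the ribosomal RNA of a small subunit, which reads the mRNA, and a large subunit, which joins the amino acids. Because each ribosome holds nearly every protein in equal number, the genes are usually expressed at high and similar levels, and unassembled protein is degraded. Their mRNAs, together with those of several other translation factors, are known as TOP mRNAs: they begin with a cytosine and a run of pyrimidines, through which mTORC1 and the La-related protein LARP1 control their translation and stability.

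The pyrimidine run can be seen at the start sites of some of the genes on which the results below turn. The sequences are RefSeq promoter windows of GRCm38.p6, from 10 bases before to 20 bases after the annotated start, read 5′ to 3′ on the gene's strand. Capitals mark CTTTC or CTTCC. Rps27, Rps27rt and Rps27l are copies of the same gene whose proportions differed between the libraries, Rplp0 and Rplp2 are partners in the ribosomal stalk, and Rps6 is the substrate of the S6 kinases.
Rps27 (chr3:90213629-90213658, minus strand): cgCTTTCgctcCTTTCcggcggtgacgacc
Rps27rt (chr9:114982720-114982749, minus strand): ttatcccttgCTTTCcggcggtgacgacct
Rps27l (chr9:66946076-66946105, plus strand): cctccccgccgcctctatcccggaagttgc
Rplp2 (chr7:141447641-141447670, plus strand): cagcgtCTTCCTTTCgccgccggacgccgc
Rplp0 (chr5:115559457-115559486, plus strand): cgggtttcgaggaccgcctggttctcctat
Rps6 (chr4:86857348-86857377, minus strand): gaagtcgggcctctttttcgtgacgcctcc
Rps27 and Rps27rt share a run of 38 identical bases, beginning at base 2 of the annotated Rps27 transcript and base 1 of that of Rps27rt. The printed windows of Rps27l, Rplp0 and Rps6 hold neither pentamer, which says only that these letters are absent from these windows. The Rps6 window does hold a cytosine and a run of pyrimidines at the annotated start, ctctttttc, which neither pentamer matches.

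Of the 86 genes, 66 matched a RefSeq promoter by symbol, with chromosome 18 left out. Within 30 bases on either side of the start, CTTTC stood on the gene's strand in 31.8% of the 66, against 7.78% of 27025 promoters. CTTCC was found there in 31.8% against 12.7%, and either pentamer in 37 of the 66, or 56.1%, against 19.2%. The pentamers can overlap each other, as at Rplp2. On the opposite strand CTTTC was found in 10.6% against 7.19%, and CTTCC in 25.8% against 14.3%. A match is a description of letters and not a mapped start of the mRNA.

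Ribosomal protein mRNA made up a smaller part of the CANDI470 library. The 86 genes held 504000 counts, or 1.21% of that library (95% Clopper-Pearson interval, 1.207 to 1.214%), and 991169 counts, or 3.48%, of the PBS library (3.478 to 3.492%). The share was 2.88-fold larger in the PBS control, a comparison that needs no scaling factor. In bulk RNA, fewer cells of a type and less RNA per cell cannot be told apart, and a larger share of other mRNAs gives the same reading.

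Of the 86 genes, 83 reached 1 CPM in a library and are compared below. Rpl24 and Rpl36al did so in the PBS library alone, which fixes their direction. At the 2-fold rule of size, 40 of the 83 genes were lower in CANDI470 and 0 were higher. Among all 12779 genes kept, 23.6% were at least 2-fold lower and 25.7% at least 2-fold higher. A 4-fold lower level was seen for 8 of the 83, and the share of all genes past 4-fold was not computed. In any amount, 82 were lower and 1, Rps27l, was higher, though Rps27l was at -0.64 with library totals and -0.31 with upper-quartile scaling. The median log2 difference was -0.97, with quartiles of -1.41 and -0.62 and a range of -3.54 to 0.05. The median of all genes was -0.01. The ratio interval lay wholly below 1 for 80 of the 83 genes and held 1 for Rps27l, Rps24 and Rps10.

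The number past 2-fold depends on the scaling. Library totals, without TMM factors, gave 72 of 83 genes lower and 0 higher, with a median of -1.67. On that scale 40.2% of all genes were lower and 16.2% higher, with a median of -0.69 over all genes.

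**Figure D1:**
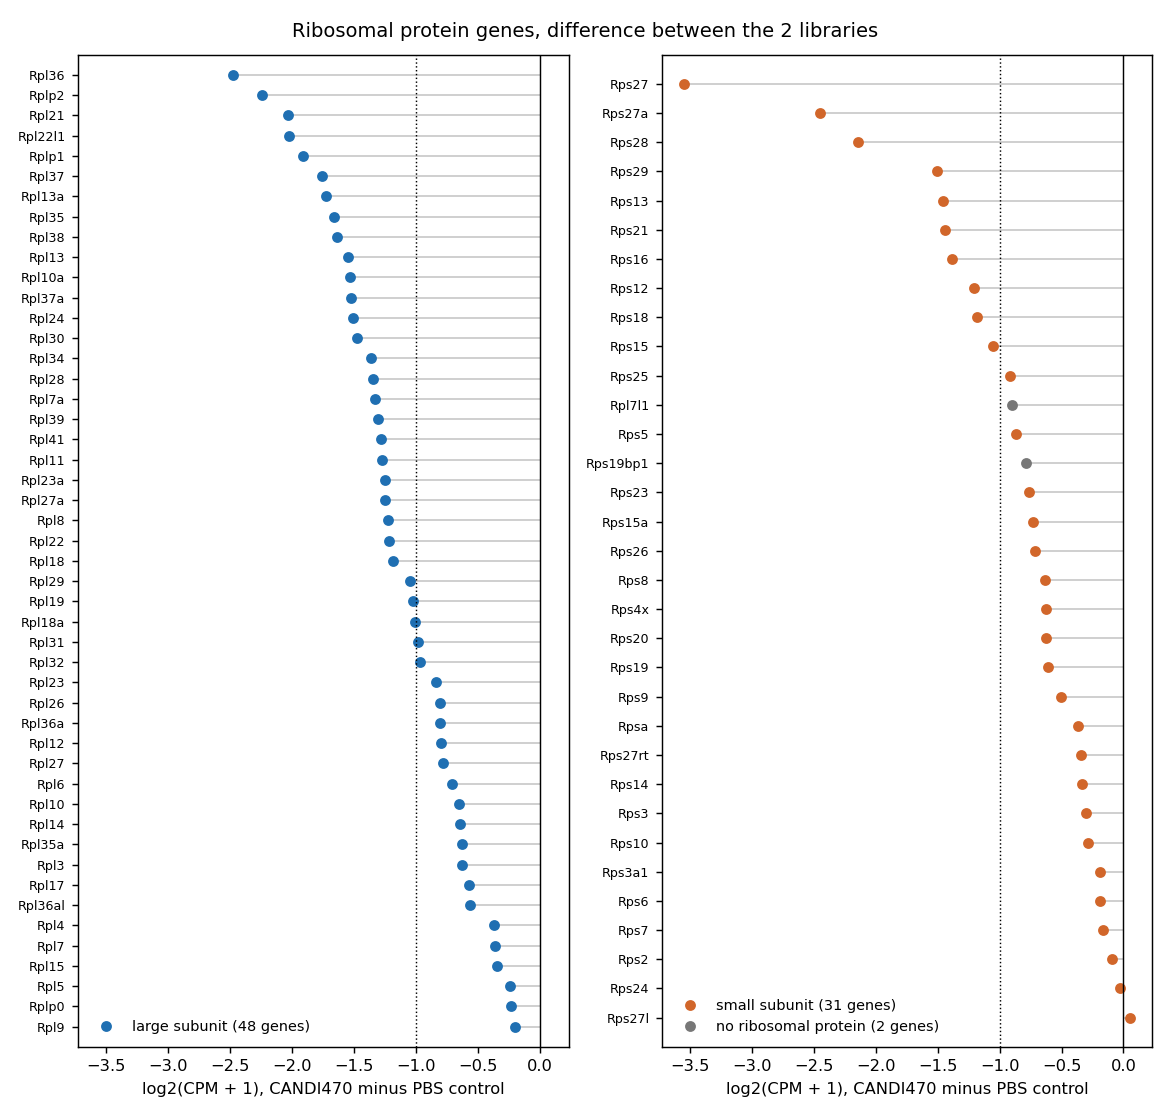
Difference in log2(CPM + 1), CANDI470 less PBS control, for the genes with at least 1 CPM that are reported by name, ordered within each panel. The left panel holds the large subunit. The right panel holds the small subunit and, in grey, Rps19bp1 and Rpl7l1, which belong to neither subunit. The solid line is 0 and the dotted line 2-fold lower. Every large-subunit gene lies left of 0, and the small subunit runs from Rps27 at -3.54 to Rps27l at 0.05.

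Both subunits were lower, and the genes within each were spread widely. Of 48 large-subunit genes, 28 were at least 2-fold lower, and the median was -1.20. Of 33 small-subunit genes, 12 were at least 2-fold lower, and the median was -0.71. The shares lower were 58.3% and 36.4%, beside 48.2% of the 83 ribosomal protein genes and 23.6% of all genes. The large subunit held 53.2% of all ribosomal protein counts in CANDI470 (53.1 to 53.4%) and 57.7% in the PBS control (57.7 to 57.8%), a ratio that again needs no scaling.

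The stalk, the flexible arm of the large subunit that recruits the GTPase translation factors, is built on Rplp0, which anchors dimers of Rplp1 and Rplp2. The 3 mRNAs did not keep their proportions. Rplp0 had 25949 counts with CANDI470 and 33990 with PBS, or 802 and 939 CPM, a log2 difference of -0.23. Rplp1 had 7230 and 30454 counts, or 223 and 841 CPM, a difference of -1.91. Rplp2 had 2581 and 13759 counts, or 79.8 and 380 CPM, a difference of -2.24. Rplp0 was thus less than 2-fold lower while both of its partners were past 2-fold. The size for Rplp0 depends on the scaling, at -0.60 with upper-quartile scaling and -0.94 with library totals. Per 100 counts of Rplp0, the CANDI470 library held 27.9 of Rplp1 (27.1 to 28.6), against 89.6 in the control (88.2 to 91.0). For Rplp2 the figures were 9.95 (9.55 to 10.4) and 40.5 (39.7 to 41.3), so this ratio was 4.07-fold smaller in CANDI470. Rplp2 per 100 Rplp1 moved less, at 35.7 and 45.2. The transcripts differ in length, at 1358 bases for Rplp0, 499 for Rplp1 and 421 for Rplp2. Other protein-coding genes had a median of -0.37 from 1000 to 1500 bases and -1.06 under 500. The part of transcript length in the stalk ratios was not tested. Rpl12, which sits at the base of the stalk, had a difference of -0.79.

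Rpl5 and Rpl11 enter the large subunit together with the 5S ribosomal RNA, and the particle they form is also known to bind the p53 regulator MDM2. Rpl5 had 11876 and 15725 counts, a difference of -0.24, and Rpl11 had 4966 and 13475 counts, a difference of -1.27. Counts of Rpl11 per 100 of Rpl5 were 41.8 in CANDI470 (40.4 to 43.2) and 85.7 in the control (83.7 to 87.7). Of the pair, Rpl11 alone was past 2-fold. The transcript of Rpl5 has 2045 bases and that of Rpl11 has 833. Other protein-coding genes had a median of -0.18 from 1500 to 2500 bases and -0.55 from 700 to 1000. The part of transcript length in the ratio of Rpl11 to Rpl5 was not tested.

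Among 9 proteins that line or surround the tunnel through which the new chain leaves, 5 were at least 2-fold lower, with a median of -1.02. That share, 55.6%, was near the 48.2% of the 83 ribosomal protein genes. Over all genes it was 23.6%. They ran from Rpl35 at -1.66, with 1881 and 6717 counts, to Rpl4 at -0.37, with 16010 and 23147. Rpl3, which lies near the peptidyl transferase centre, had 11497 and 19886 counts and a difference of -0.63. Rpl41, the smallest ribosomal protein, had 7139 and 19451 counts and a difference of -1.28.

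The lowest large-subunit genes were Rpl36, Rplp2, Rpl21, Rpl22l1 and Rplp1. Rpl36 had 1008 counts with CANDI470 and 6431 with PBS, a difference of -2.47 (ratio interval, 0.164 to 0.188). Rpl21 had 772 and 3651 counts and a difference of -2.03. Rpl37, the next in order, had 1970 and 7551 counts and a difference of -1.76. At the other end were Rpl9, with 7955 and 10242 counts and a difference of -0.20, and the Rplp0 and Rpl5 described above. No large-subunit gene that reached 1 CPM was higher in CANDI470.

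In the small subunit, Rps27 stood lowest. This zinc-finger protein, also called metallopanstimulin, had 510 counts with CANDI470 and 7045 with PBS, or 15.8 and 195 CPM. The difference of -3.54 came with a ratio interval of 0.0739 to 0.0887. Among the 86 genes ranked by CPM per kilobase of transcript, Rps27 was number 23 in the control and number 75 in CANDI470.

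Rps27a, which is made as a fusion with ubiquitin and so supplies ubiquitin as well as a ribosomal protein, had 2299 and 14209 counts and a difference of -2.45. Rps28, at the mRNA exit, had 1080 and 5448 counts and a difference of -2.14. Further small-subunit genes past 2-fold included Rps29 at -1.51, with 1635 and 5274 counts, and Rps15 at -1.05, with 6161 and 14309.

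Several small-subunit genes were close to level under TMM scaling, though not under library totals. Rps24 had 13499 and 15366 counts, or 417 and 424 CPM, a difference of -0.02 (ratio interval, 0.961 to 1.01). Rps2, at the mRNA entry, was at -0.09, and Rps7 was at -0.17. Rps6, whose phosphorylation by the S6 kinases is a common readout of mTORC1, had 12021 and 15354 counts, or 372 and 424 CPM, and a difference of -0.19. Rps3a1 was also at -0.19, and Rpsa, the laminin-receptor homologue of the 40S head, was at -0.37 with 15931 and 23011 counts. With library totals, Rps24 was at -0.73, Rps2 at -0.80, Rps7 at -0.87, Rps6 and Rps3a1 at -0.90 and Rpsa at -1.08, past 2-fold.

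Smaller groups were read under TMM scaling, where 23.6% of all genes were at least 2-fold lower. Of 6 proteins around the mRNA entry and exit of the small subunit, Rps28 alone was past 2-fold, and their median was -0.52. Of 9 genes in a partial list of those whose human counterparts are mutated in Diamond-Blackfan anaemia, 2, Rpl11 among them, were at least 2-fold lower. Their median was -0.61, and the share lower was close to that of all genes. The list leaves out Rps27, Rps28, Rpl35 and Rps29, each past 2-fold, and also Rpl15, Rpl26 and Rpl27, each short of it. The share therefore describes the 9 listed genes alone. Of 4 genes on the X chromosome, Rpl39 alone was past 2-fold on this scale, and the median was -0.73. Rpl10 and Rpl36a passed it too with library totals, at -1.36 and -1.50, and with upper-quartile scaling, at -1.02 and -1.17.

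**Figure D2:**
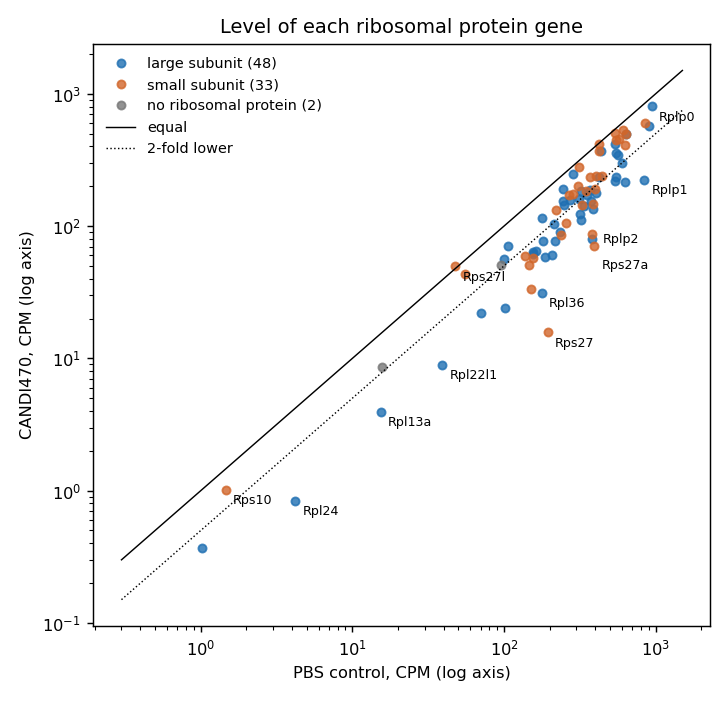
CPM of each of the 83 genes in the PBS control (horizontal, log axis) and in CANDI470 (vertical, log axis), coloured by subunit; the solid line marks equal levels and the dotted line 2-fold lower. Rps27, at 195 against 15.8 CPM, lies farthest below the lines, and Rps10, Rpl24 and Rpl13a sit apart at low levels in both libraries.

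The order of the genes by level changed along with the total. Per kilobase of transcript, the most abundant in the control were Rplp1 at 1685 CPM per kilobase, Rpl41 at 1229, Rps9 at 1136, Rpl10 at 1125 and Rps14 at 958. In CANDI470, Rps9 stood first at 802 CPM per kilobase, followed by Rps14 at 758 and Rpl10 at 715, while Rpl41 was number 7 at 505 and Rplp1 number 8 at 448. Rps9, Rpl10 and Rps14 had log2 differences of -0.50, -0.65 and -0.34. The 10 members with the most counts in each library held 34.1% of ribosomal protein counts in CANDI470 (34.0 to 34.3%) and 26.6% in the control (26.5 to 26.7%).

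Copies of a ribosomal protein gene gave the widest contrasts within a library. Rps27l, which encodes a protein nearly identical to that of Rps27 and in human cells is a target of p53, had 1601 counts with CANDI470 and 1725 with PBS, or 49.5 and 47.6 CPM. Its difference of 0.05 had a ratio interval of 0.970 to 1.11. Rps27rt, a retrogene copy singled out after its values were seen, had 1415 and 2015 counts and a difference of -0.34. By CPM, Rps27 was 12.3-fold lower. The scaling moves each of these values, and Rps27rt was at -0.70 with upper-quartile scaling and at -1.04, past 2-fold, with library totals.

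The library treated with CANDI470 held 314 counts of Rps27l per 100 of Rps27 (284 to 348), and the control held 24.5 (23.2 to 25.8), a 12.8-fold change in the ratio. Rps27rt stood at 277 per 100 Rps27 (251 to 308) and at 28.6 (27.2 to 30.1). Rps27 was thus the most abundant of the 3 in the control and the least abundant in CANDI470. Reads of Rps27 and Rps27rt may be shared, since the genes share sequence, and the strand and multi-mapping settings of the count are not given in the sources used here. Their sum was 1925 counts with CANDI470 and 9060 with PBS, a difference of -2.05 (ratio interval, 0.226 to 0.250), against -3.54 for Rps27 alone. In the control table, on GRCm38, Rps27 lies at chr3:90212522-90213651, Rps27rt at chr9:114982366-114982739 and Rps27l at chr9:66946086-66949516.

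Rpl22l1, the paralogue that can replace Rpl22, went the other way. It had 288 counts with CANDI470 and 1419 with PBS, a difference of -2.02, while Rpl22 had 2501 and 6531 counts and a difference of -1.21. Per 100 counts of Rpl22 there were 11.5 of Rpl22l1 in CANDI470 (10.2 to 13.0) and 21.7 in the control (20.5 to 23.0). Rpl7l1, which acts in the assembly of the large subunit, stood at 12.2 per 100 counts of Rpl7 in CANDI470 and 17.8 in the control. Rpl7 had a difference of -0.36 and Rpl7l1 of -0.90.

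The other paralogues were barely expressed. Rpl36al had 12 and 37 counts, or 0.654 and 1.02 per 100 counts of Rpl36a, with overlapping intervals. Rpl36a itself had a difference of -0.80. The 3 genes below 1 CPM in both libraries were Rpl39l with 10 and 8 counts, Rpl3l, known as a striated-muscle paralogue, with 2 and 4, and Rpl10l, known from testis, with 0 and 0. A floor of 3 counts is 0.0927 CPM for CANDI470 and 0.0828 CPM for PBS. At 0.478 and 0.137 per 100 counts of Rpl39, with intervals of 0.229 to 0.880 and 0.0590 to 0.270, Rpl39l overlapped between the libraries.

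**Figure D3:**
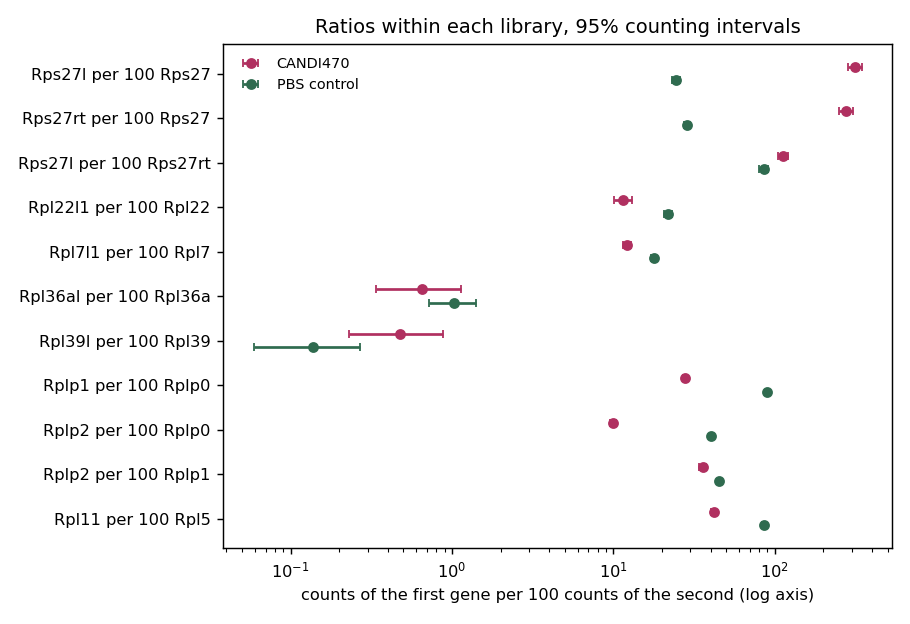
Counts of the first-named gene per 100 counts of the second in each library (horizontal, log axis), with 95% exact intervals for counting error; Rpl3l is left out because it had 2 and 4 counts. The copies of Rps27 lie about an order of magnitude apart between the libraries and the stalk ratios are smaller in CANDI470.

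Pseudogenes bear on how ribosomal protein reads are counted, because the mouse genome holds many processed copies. A total of 310 pseudogenes listed in both annotations were named after 60 of the 86 genes, and they held 4.17% of the counts on genes plus pseudogenes in CANDI470 and 4.51% in the control. Of these, 65 reached 1 CPM, with a median difference of -1.08, and 35 were at least 2-fold lower and 3 at least 2-fold higher. The median of these pseudogenes was near the -0.97 of the 83 ribosomal protein genes. That median and the count of 35 rest in part on copies that reached 1 CPM in the PBS library alone, so the filter partly sets both. Some single copies differed from their genes. Rps2-ps13 was at -4.24 and Rps2 at -0.09, while Rps26-ps1 was at 2.01 and Rps26 at -0.71. Some copies reached 1 CPM in 1 library alone, which fixes their direction. Rps2-ps13 was at 0.371 CPM with CANDI470 and 24.9 with PBS, Rps13-ps2 at 0.556 and 10.9, and Rps2-ps6 at 5.66 and 0.193.

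For 2 genes the pseudogenes held more counts than the gene itself in both libraries. Rps10 had 33 and 53 counts against 1275 and 3039 on its pseudogenes, and with these added its difference was -1.06 in place of -0.29. Rpl17 had 2298 and 3825 counts against 6051 and 9982 on its pseudogenes. The values of Rps10 and Rpl17 are uncertain for this reason, and those of Rpl13a with 128 and 558 counts and Rpl24 with 27 and 152 rest on few counts. How reads were divided between genes and copies was not tested.

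Short transcripts were lower in CANDI470 across all genes, and ribosomal protein transcripts are short. Their median length was 681 bases, against 2791 bases for other protein-coding genes kept. Under 500 bases, the 19 ribosomal protein genes had a median difference of -1.28 and the 81 other genes one of -1.06, of which 53.1% were at least 2-fold lower. From 500 to 700 bases the medians were -1.05 for 23 and -0.73 for 214 genes. From 700 to 1000 bases they were -0.78 for 23 and -0.55 for 505 genes. From 1000 to 1500 bases the medians were -0.82 for 12 and -0.37 for 1219 genes, and from 1500 to 2500 bases they were -0.30 for 5 and -0.18 for 2809 genes. Only Rps20, at -0.63, was longer, where 6484 other genes had a median of 0.18. The first bin and the last 3 hold fewer than 20 ribosomal protein genes each.

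Within each length class the ribosomal protein genes had a lower median than all other genes of that length. Against the other genes whose control CPM was at least the 10th percentile of the ribosomal protein genes, this did not hold under 500 bases, where 10 such genes had a median of -1.55. In the next classes these abundant genes had medians of -0.62 (35 genes), -0.49 (81), -0.43 (170), -0.06 (462) and 0.05 (1160). Among the 83 genes, Spearman's rho of the difference was 0.42 with transcript length, 0.44 with coding length, 0.28 with the CPM in the control and -0.25 with GC content. Over 11312 other protein-coding genes it was 0.17 with transcript length and -0.27 with GC content. These correlations run over genes that share the same 2 libraries and describe them only. Median GC content was 51.6% for the ribosomal protein genes and 50.4% for the others. The part of transcript length in the lower ribosomal protein counts was not tested.

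**Figure D4:**
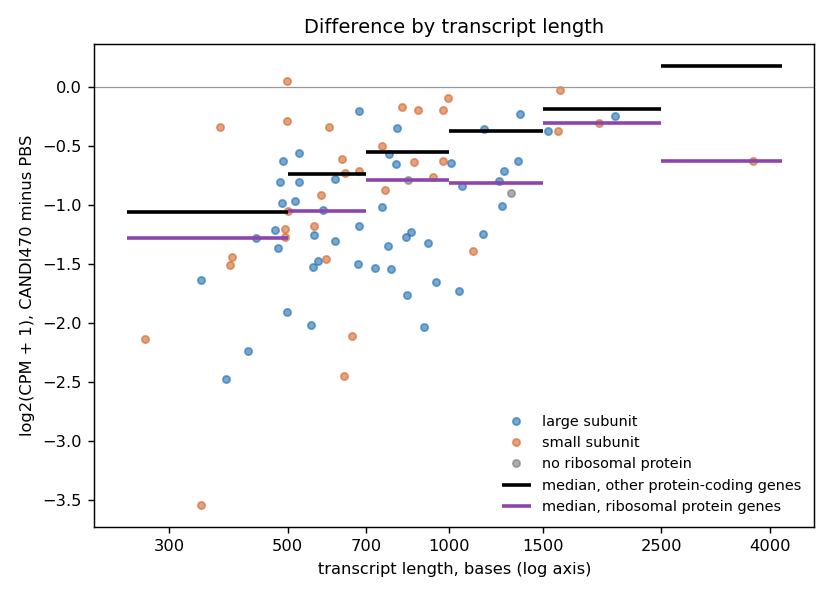
Difference in log2(CPM + 1), CANDI470 less PBS control, against transcript length in bases (log axis) for the 83 genes, with medians per length class of these genes (purple) and of other protein-coding genes (black). Both medians are lowest under 500 bases, at -1.28 and -1.06, and the purple line lies below the black in each class.

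Ribosomal proteins that the name rule does not reach were also lower. Fau, made as a fusion with a ubiquitin-like protein and carrying the small-subunit protein S30, had 7742 and 23750 counts and a difference of -1.45. Its gene model differed in length between the tables. Rack1, a scaffold on the 40S head, had 14070 and 20882 counts and a difference of -0.41.

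Other genes of translation were compared with the shares over all genes, of which 23.6% were at least 2-fold lower and 25.7% at least 2-fold higher. Of 9 elongation factors and their regulators, 4 were at least 2-fold lower and 0 higher, with a median of -0.49. Eef1a1, which delivers aminoacyl-tRNA and is itself a TOP mRNA, was at -0.06 with 140182 and 163240 counts, and Eef1g was at -0.07. The lowest were Eef2k, the kinase that inhibits elongation factor 2, at -3.92, and the methyltransferase gene Eef1akmt1 at -1.83. Of 35 initiation factors, 2 were lower and 8 higher, with a median of 0.12, so the share higher was near that of all genes. Pabpc1, the cytoplasmic poly(A)-binding protein, was at 2.42 and Eif1a at 2.07, whereas Eif2b3 was at -1.09 and Eif3i at -1.07.

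Among 19 other TOP mRNAs, 3 were lower and 3 higher, with a median of -0.35. Both shares were below the 23.6% lower and 25.7% higher of all genes. Pabpc1 and Hnrnpa1, at 1.52, were the highest, and Fau was among the lowest. Pabpc1, Eef1a1, Fau and other genes stand on more than 1 list, so the lists are not independent.

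Genes that build ribosomes were found in both directions. Of 37 ribosome biogenesis factors, 10 were at least 2-fold lower and 6 higher, with a median of -0.36, against 23.6% lower and 25.7% higher over all genes. Tsr1, a late 40S assembly factor, was at 1.47, and Wdr74 had 188 counts against 3, with a gene model of another length in each table. The lowest were the pseudouridine synthase Dkc1 at -2.23 and Wdr12 at -1.94. Of 20 subunits and factors of RNA polymerases I and III, 8 were lower and 2 higher, with a median of -0.78. Polr1b, a core subunit of RNA polymerase I, was at -2.15 and Gtf3a, the 5S gene factor, at -1.94, against 1.31 for Taf1b and 1.15 for Taf1a.

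Of 26 genes of mTORC1 signalling and translational control, 7 were lower and 6 higher, with a median of -0.25, about the shares of all genes (23.6% and 25.7%). Ddit4 (REDD1), an inhibitor of mTORC1, was at 5.70 with 5407 and 81 counts, and Mxd1, a MAX partner that opposes MYC, was at 6.19. Sesn1, another inhibitor of mTORC1, was at -5.79, and Deptor, also an inhibitor, at -2.97. Chosen after their values were seen, Larp1, which binds TOP mRNAs, had 16234 and 3202 counts, a difference of 2.49, and Myc, an activator of ribosomal genes, had 52 and 500 counts, a difference of -2.51. Of 12 genes that act on stalled ribosomes, 1 was lower and 2 higher, with a median of 0.40. Ascc3, a helicase that splits collided ribosomes, was at 3.51 and Rnf14 at 1.77, and Usp10 and G3bp1 were at -1.26 and -0.91.

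Markers of macrophages and of other marrow cells were read beside the ribosomal protein genes. All 10 macrophage markers were detected in both libraries, with a summed level of 12639 CPM with CANDI470 and 20881 CPM with PBS, and at 2-fold 2 were lower and 2, Fcgr1 and Mertk, higher. Lyz2 made up most of both sums, at 7274 and 13837 CPM. Of 21 markers of other marrow cell types, 10 reached 1 CPM, and all 10 were past 2-fold on the CANDI470 side. For 6 of them CANDI470 was the only library at 1 CPM, which fixes their direction. Pf4, Ngp, S100a8 and S100a9 reached 1 CPM in both libraries, with differences of 3.49, 5.46, 3.96 and 5.18. Over all genes kept, the share past 2-fold on that side was 25.7%. Markers below the filter went both ways, such as Elane with 2 and 10 counts and Flt3 with 30 and 4. The summed level of the list was 778 CPM against 49.0 CPM, and 3 of the 21 were at 0 in CANDI470 and 7 in the control. Pf4 made up most of both sums, at 478 and 41.6 CPM, so they mainly follow that gene. Hbb-bs and Hba-a1, the globin markers of red cell precursors, were at 0 in both libraries. The part of other cell types in the lower ribosomal protein counts was not tested.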

How the data were processed

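The count tables that the authors deposited give unnormalized whole-number gene counts, per the file headers. Also deposited were log2 CPM tables, used as an alternative scaling; their title lines name the other sample. The submitters' processing notes name mm10; the aligner, counter and strand setting are not given in the sources used here. There were 3 further sample columns, which match none of the labelled samples and are not analysed here. Tables were joined by gene identifier, and coordinates are from the control table.

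TMM factors (edgeR 4.0.16, R 4.3.3) were computed over genes reaching 1 CPM in either library. They were 0.782 for CANDI470 and 1.28 for PBS. The same minimum, after scaling, and a pseudocount of 1 CPM were used. With 1 sample per group no test was run, and 2-fold is a rule of size. Intervals are Clopper-Pearson (scipy 1.17.1), and their median half-width was 0.049 on the log2 scale. Without molecular identifiers, reads may repeat a molecule, so intervals cover counting error only. Transcript length and GC content came from GENCODE M21, and promoters from RefSeq. The procedure was tested on simulated data.

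The members, gene lists and roles were chosen with earlier results of these data known. Named were the 10 lowest and 10 highest members, the 5 most abundant per kilobase in the control, Rps6, Rpl3, Rpsa and the stalk genes, paralogues with their parents, and the 2 highest and 2 lowest genes per list. A few of these genes are not reported by name. Alternatives included DESeq2 1.42.0 size factors.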

Additional observations from a re-analysis of the deposited data

How the results depend on the processing

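No paired analysis was possible because each group had 1 sample, and for the same reason no replicate could be left out. The number of ribosomal protein genes at least 2-fold lower stayed within 1.5 times of 40 under each alternative run other than library totals, which gave 72; the number at least 2-fold higher was 0 throughout. The median of -0.97 became -1.67 with library totals, -1.33 with upper-quartile scaling, -0.90 with a pseudocount of 5 CPM, -0.91 with no filter, and, chosen after seeing the data, -1.07 with TMM over all shared identifiers and -0.91 for genes with 1000 counts or more in each library. Upper-quartile scaling over all shared identifiers, also added, put the median of all genes at 0.03 in place of -0.38. The share of counts, 1.21% in CANDI470 and 3.48% in the control, was 1.23% and 3.56% of protein-coding counts, 1.26% and 3.65% with pseudogenes added, and 1.20% and 3.45% without paralogues. Of the genes on the translation and ribosome lists, 34 were at least 2-fold lower and 26 higher, beside 23.6% and 25.7% of all genes. Library totals gave 70 and 12, beside 40.2% and 16.2% of all genes. Upper-quartile scaling gave 16 higher, beside 20.2%, and a pseudocount of 5 CPM gave 21 lower, beside 13.9%. The shares of all genes thus moved in the same direction as these counts. Of 33 named members, Rps27l ranged from -0.64 with library totals to 0.10 with the added upper-quartile scaling, and Rps24 was at 0.01 in the deposited log2 values and 0.02 with the added upper-quartile scaling; no member past 2-fold changed direction. Depth limits Rps10, Rpl24 and Rpl36al, which had 33, 27 and 12 counts in CANDI470. The cause of these shifts was not tested.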
